A study of Mus musculus with 8 samples.

Results

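The 8 genes described here, Slc17a7, Tbr1, Neurod6, Neurod2, Cux2, Rorb, Fezf2 and Emx1, were chosen by symbol as genes of cortical glutamatergic projection neurons, out of 55032 genes counted in striatum RNA. The striatum was taken at postnatal day 60 from 4 WT females and 4 females carrying a heterozygous 16p11.2 deletion (16p11.2+/-, named DF in the mouse labels), all of strain C57BL/6. The deletion is constitutive and was carried by every cell, the line was imported and kept on this background, and each mouse gave 1 library of total RNA from dissected tissue frozen at once. The question addressed here is whether the cortical genes moved together from piece to piece, and whether their level differed between genotypes.

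Projection neurons of the cerebral cortex release glutamate, whereas the projection neurons of the striatum itself, the medium spiny neurons, release GABA. Cortical axons end densely in the striatum, but the messenger RNA of a neuron lies mostly in its cell body, and the cell bodies of these axons lie in the cortex that covers the striatum. The 8 genes take different roles in these cells. Slc17a7 encodes VGLUT1, which loads glutamate into synaptic vesicles. Neurod2 and Neurod6 are basic helix-loop-helix factors of postmitotic excitatory neurons, Emx1 is a homeobox gene of the cortical progenitor zone and its neurons, Tbr1 and Fezf2 direct the identity of deep layer neurons, and Cux2 and Rorb mark upper layers and layer 4. Rorb is also known from sensory nuclei of the thalamus.

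Total counts were 15125051 to 16387993 in WT libraries and 15240680 to 16523429 in 16p11.2+/- libraries, so that depth hardly differed. All 8 genes passed the expression filter, which kept 18294 genes. The genotype was checked on 2 genes of the deleted segment, the kinase genes Mapk3 and Taok2. Mapk3 lay between 35.7 and 46.4 FPKM (the read count scaled by exon length and library total) in WT mice and between 20.7 and 22.3 in 16p11.2+/- mice. Taok2 averaged 17.8 ± 0.902 FPKM in WT and 9.19 ± 0.424 in 16p11.2+/- mice (SD, n = 4 each). The libraries WT-1063, DF-1018, DF-1037 and DF-1062 stood apart by a thalamus marker list, with summed levels of 867 to 1537 CPM (counts scaled to the library total and its TMM factor, as for all summed levels and log2 CPM) against 151 to 204 in the other 4, and the fold changes of the 8 genes are given also without single mice.

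The sequences shown are the 250 bases before the transcription start of 4 of the genes, from RefSeq on GRCm38.p6, cut at the start of the annotated exon for Neurod2. They were chosen because Slc17a7, Neurod2 and Neurod6 had the same 3 lowest mice and Rorb did not, and because Neurod2 and Neurod6 are E-box binding factors. Capitals mark the E-box CANNTG, which reads the same on both strands. Each is written 5′ to 3′ in the direction of the gene.
Slc17a7 (chr7:45163671-45163920, + strand): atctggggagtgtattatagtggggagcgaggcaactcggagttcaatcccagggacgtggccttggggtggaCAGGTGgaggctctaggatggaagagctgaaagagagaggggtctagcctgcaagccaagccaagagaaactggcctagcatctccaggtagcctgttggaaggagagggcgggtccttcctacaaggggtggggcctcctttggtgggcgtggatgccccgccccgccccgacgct
Neurod2 (chr11:98329649-98329895, - strand): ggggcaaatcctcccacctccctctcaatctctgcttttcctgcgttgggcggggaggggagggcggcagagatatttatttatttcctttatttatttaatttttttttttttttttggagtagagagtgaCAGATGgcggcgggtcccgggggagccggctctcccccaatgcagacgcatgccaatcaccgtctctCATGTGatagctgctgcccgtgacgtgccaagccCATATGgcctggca
Neurod6 (chr6:55681264-55681513, - strand): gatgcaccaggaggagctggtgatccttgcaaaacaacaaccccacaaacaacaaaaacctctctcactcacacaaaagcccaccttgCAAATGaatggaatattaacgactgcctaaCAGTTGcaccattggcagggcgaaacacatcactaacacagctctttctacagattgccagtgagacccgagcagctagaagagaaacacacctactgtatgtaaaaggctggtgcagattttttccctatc
Rorb (chr19:19111197-19111446, - strand): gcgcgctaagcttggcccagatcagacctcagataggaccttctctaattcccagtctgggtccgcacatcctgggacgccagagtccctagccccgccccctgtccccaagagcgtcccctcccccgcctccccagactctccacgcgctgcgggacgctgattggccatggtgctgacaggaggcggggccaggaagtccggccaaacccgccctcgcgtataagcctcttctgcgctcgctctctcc

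The E-box stood 1 time in the window of Slc17a7, 3 times in that of Neurod2 and 2 times in that of Neurod6, and was not among the letters of this Rorb window, though a second RefSeq window of Rorb (chr19:19001118-19001367) held it 2 times. RefSeq lists 10 such windows for the 8 genes, and 8 of them held an E-box, against 66.2% of 32851 mouse promoter windows of the same length, so that the motif is common. In these windows it did not go with the order of mice. The window of Fezf2, which had the same 3 lowest mice as Slc17a7, held none. The windows of Cux2, which did not have them, held 1 and 2. By GENCODE, however, all 250 bases of the Tbr1 and Emx1 windows lie in exons, as do 94 of Fezf2 and 86 and 66 of Cux2. The RefSeq starts of these genes thus lie inside the GENCODE gene, and the windows hold transcribed bases. The windows thus cannot decide whether the E-box goes with the order of mice. The variant CAGATG, searched on both strands and contained in the E-box, stood in windows of 2 of the genes, Neurod2 and Cux2, against 14.4% of all windows. The T-box motif GGTGTGA (3.3% of all windows) and the motif AGGTCA bound by ROR factors (14.0%) matched none of the 10 windows on either strand. The homeobox motif TAATTA, held by 4.8% of all windows, matched that of Tbr1 alone. These matches are descriptions of letters, and binding was not measured.

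Slc17a7 (ENSMUSG00000070570, chromosome 7, 45163949 to 45176142, GRCm38) was the most abundant of the 8 genes per length in each of the 8 mice. Its FPKM was 53.8 in WT-1015, 67.9 in WT-1041, 29.0 in WT-1061 and 20.2 in WT-1063. In 16p11.2+/- mice it was 10.4 in DF-1018, 106 in DF-1037, 25.3 in DF-1059 and 7.83 in DF-1062. The highest and the lowest piece were thus both from 16p11.2+/- mice, and the groups overlapped. The means were 42.7 ± 22.0 and 37.3 ± 46.2 FPKM (SD, n = 4 each, WT first as in all such pairs), a log2 fold change of -0.21 (SE 0.79, 95% interval -2.01 to 1.59). The adjusted p of edgeR's quasi-likelihood test, over all genes tested, was 0.958, and the exact two-sided permutation p of the FPKM was 0.800. The counts behind these values ran from 698 to 8735, and the CPM of a single gene, scaled here to the library total alone, differed 13.5-fold between the lowest and the highest mouse. In bulk tissue, fewer cells of a type and less RNA per cell cannot be told apart, and this holds for each difference among mice given here.

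Neurod6 (ENSMUSG00000037984, chromosome 6, 55677822 to 55681263) varied most of the 8 genes. WT FPKM was 16.1 in WT-1015, 16.2 in WT-1041, 5.59 in WT-1061 and 0.115 in WT-1063. Among 16p11.2+/- mice it was 0.275 in DF-1018, 18.2 in DF-1037, 4.18 in DF-1059 and 0.141 in DF-1062. The 8 pieces fell into 5 with 146 to 601 counts and 3, namely WT-1063, DF-1018 and DF-1062, with 4, 9 and 5 counts, so both genotypes had members on each side. In WT-1063 the 4 counts gave 0.247 CPM with an exact (Clopper-Pearson) 95% binomial interval of 0.0674 to 0.633, and in DF-1037 the 601 counts gave 39.2 CPM with an interval of 36.1 to 42.4. Intervals of this kind cover counting error only. The 158-fold span between these libraries was therefore far wider than their counting error. The group means were 9.52 ± 8.02 and 5.70 ± 8.55 FPKM (SD, n = 4 each), with a log2 fold change of -0.75 (SE 1.37), an adjusted edgeR p of 0.917 and an exact permutation p of 0.657. The log2 fold change was -2.64 without DF-1037 and -0.34 without DF-1062.

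Neurod2 (ENSMUSG00000038255, chromosome 11, 98325415 to 98329648), the other gene of this family, had the same order of mice as Slc17a7, from DF-1037 down to DF-1062. FPKM was 7.68 in WT-1015, 10.6 in WT-1041, 3.65 in WT-1061 and 0.433 in WT-1063. In the deletion mice it was 0.125 in DF-1018, 11.3 in DF-1037, 3.45 in DF-1059 and 0.116 in DF-1062. DF-1018 and DF-1062 had 6 counts each and WT-1063 had 22, against 176 to 547 in the other 5 mice. The order of DF-1018 and DF-1062 was thus not detectable at this depth. The means were 5.58 ± 4.46 and 3.76 ± 5.29 FPKM (SD, n = 4 each), and the log2 fold change was -0.58 (SE 1.26, adjusted edgeR p = 0.928, exact permutation p = 0.657), against -2.19 without DF-1037 and -0.085 without WT-1041.

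Tbr1 (ENSMUSG00000035033, chromosome 2, 61802930 to 61814114), the T-box factor of deep layer neurons, was at 12.1 FPKM in WT-1015, 14.98 in WT-1041, 6.20 in WT-1061 and 0.474 in WT-1063. In 16p11.2+/- mice it was at 0.419 in DF-1018, 12.5 in DF-1037, 5.98 in DF-1059 and 2.55 in DF-1062. Here DF-1062 stood between the 2 lowest pieces and the rest, with 231 counts against 35 and 42 in DF-1018 and WT-1063. The means were 8.44 ± 6.45 and 5.36 ± 5.27 FPKM (SD, n = 4 each), with a log2 fold change of -0.68 (SE 1.01, adjusted edgeR p = 0.897, exact permutation p = 0.486), against -1.53 without DF-1037 and -0.26 without WT-1041.

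Fezf2 (ENSMUSG00000021743, chromosome 14, 12342094 to 12348189), a zinc finger factor of layer 5 neurons that project below the cortex, had the fold change farthest from 0 of the 8 in the edgeR fit of all mice, though not with limma-trend, with the thalamus covariate or without DF-1037, where another of the 8 came first. Its FPKM was 5.40 in WT-1015, 7.45 in WT-1041, 1.92 in WT-1061 and 0.284 in WT-1063. Among the 16p11.2+/- animals it was 0.452 in DF-1018, 2.78 in DF-1037, 1.66 in DF-1059 and 0.516 in DF-1062. WT-1063 was the lowest of the 8 mice, so the groups overlapped, and DF-1037, the top mouse for Slc17a7, came only after WT-1041 and WT-1015. The log2 fold change was -1.49 (SE 0.89, 95% interval -3.51 to 0.52), from 3.77 ± 3.26 to 1.35 ± 1.10 FPKM (SD, n = 4 each). It did not pass the test, with an adjusted edgeR p of 0.859 and an exact permutation p of 0.257. With the mean thalamus marker level as a covariate the log2 fold change was -0.035, but that level partly goes with genotype, and the fit cannot tell the 2 apart.

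Emx1 (ENSMUSG00000033726, chromosome 6, 85187438 to 85204462) was the least abundant, with 0 to 60 counts per mouse. Its FPKM was 1.24 in WT-1015, 1.49 in WT-1041, 0.587 in WT-1061 and 0.0850 in WT-1063. In 16p11.2+/- mice it was 0 in DF-1018, 1.79 in DF-1037, 0.732 in DF-1059 and 0.0831 in DF-1062. The 0 counts of DF-1018, out of 15240680, allow up to 0.197 CPM when 3 counts are taken as the limit (0.242 by the exact interval), and WT-1063 and DF-1062 had 3 counts each, so that the order of these 3 mice was not detectable at this depth. The CPM of DF-1037 was 19.9 times the limit of 3 counts, and a smaller multiple of the exact one. The means were 0.852 ± 0.638 and 0.651 ± 0.827 FPKM (SD, n = 4 each), with a log2 fold change of -0.40 (SE 1.09, adjusted edgeR p = 0.940, exact permutation p = 0.714).

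Cux2 (ENSMUSG00000042589, chromosome 5, 121856366 to 122050102), a homeobox factor of upper layer neurons, went another way. Its FPKM was 2.56 in WT-1015, 3.40 in WT-1041, 1.73 in WT-1061 and 6.18 in WT-1063. In the 4 deletion mice it was 4.17 in DF-1018, 10.2 in DF-1037, 3.77 in DF-1059 and 6.05 in DF-1062. WT-1063, which held some of the lowest values of the genes above, had the highest WT value of Cux2, and this mouse alone made the groups overlap. The means were 3.47 ± 1.93 and 6.05 ± 2.95 FPKM (SD, n = 4 each), a log2 fold change of 0.79 (SE 0.42, 95% interval -0.18 to 1.75). The adjusted edgeR p was 0.859 and the exact permutation p was 0.171.

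Rorb (ENSMUSG00000036192, chromosome 19, 18930605 to 19111196), an orphan nuclear receptor gene of layer 4, had a similar order of mice to Cux2. Its FPKM was 3.36 in WT-1015, 2.74 in WT-1041, 3.54 in WT-1061 and 8.84 in WT-1063. In 16p11.2+/- mice it was 6.09 in DF-1018, 11.18 in DF-1037, 3.93 in DF-1059 and 7.20 in DF-1062. Again all 16p11.2+/- values lay above the WT values except that of WT-1063. The means were 4.62 ± 2.83 and 7.10 ± 3.04 FPKM (SD, n = 4 each), with a log2 fold change of 0.60 (SE 0.42, 95% interval -0.35 to 1.55). Neither the adjusted edgeR p, 0.859, nor the exact permutation p, 0.286, passed the threshold. Without WT-1063 the log2 fold change was 1.12 for Rorb and 1.22 for Cux2, without DF-1037 it was 0.29 and 0.40, and with the thalamus level as a covariate it was 0.068 and 0.29, with adjusted edgeR p-values of at least 0.517 throughout.

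**Figure D1:**
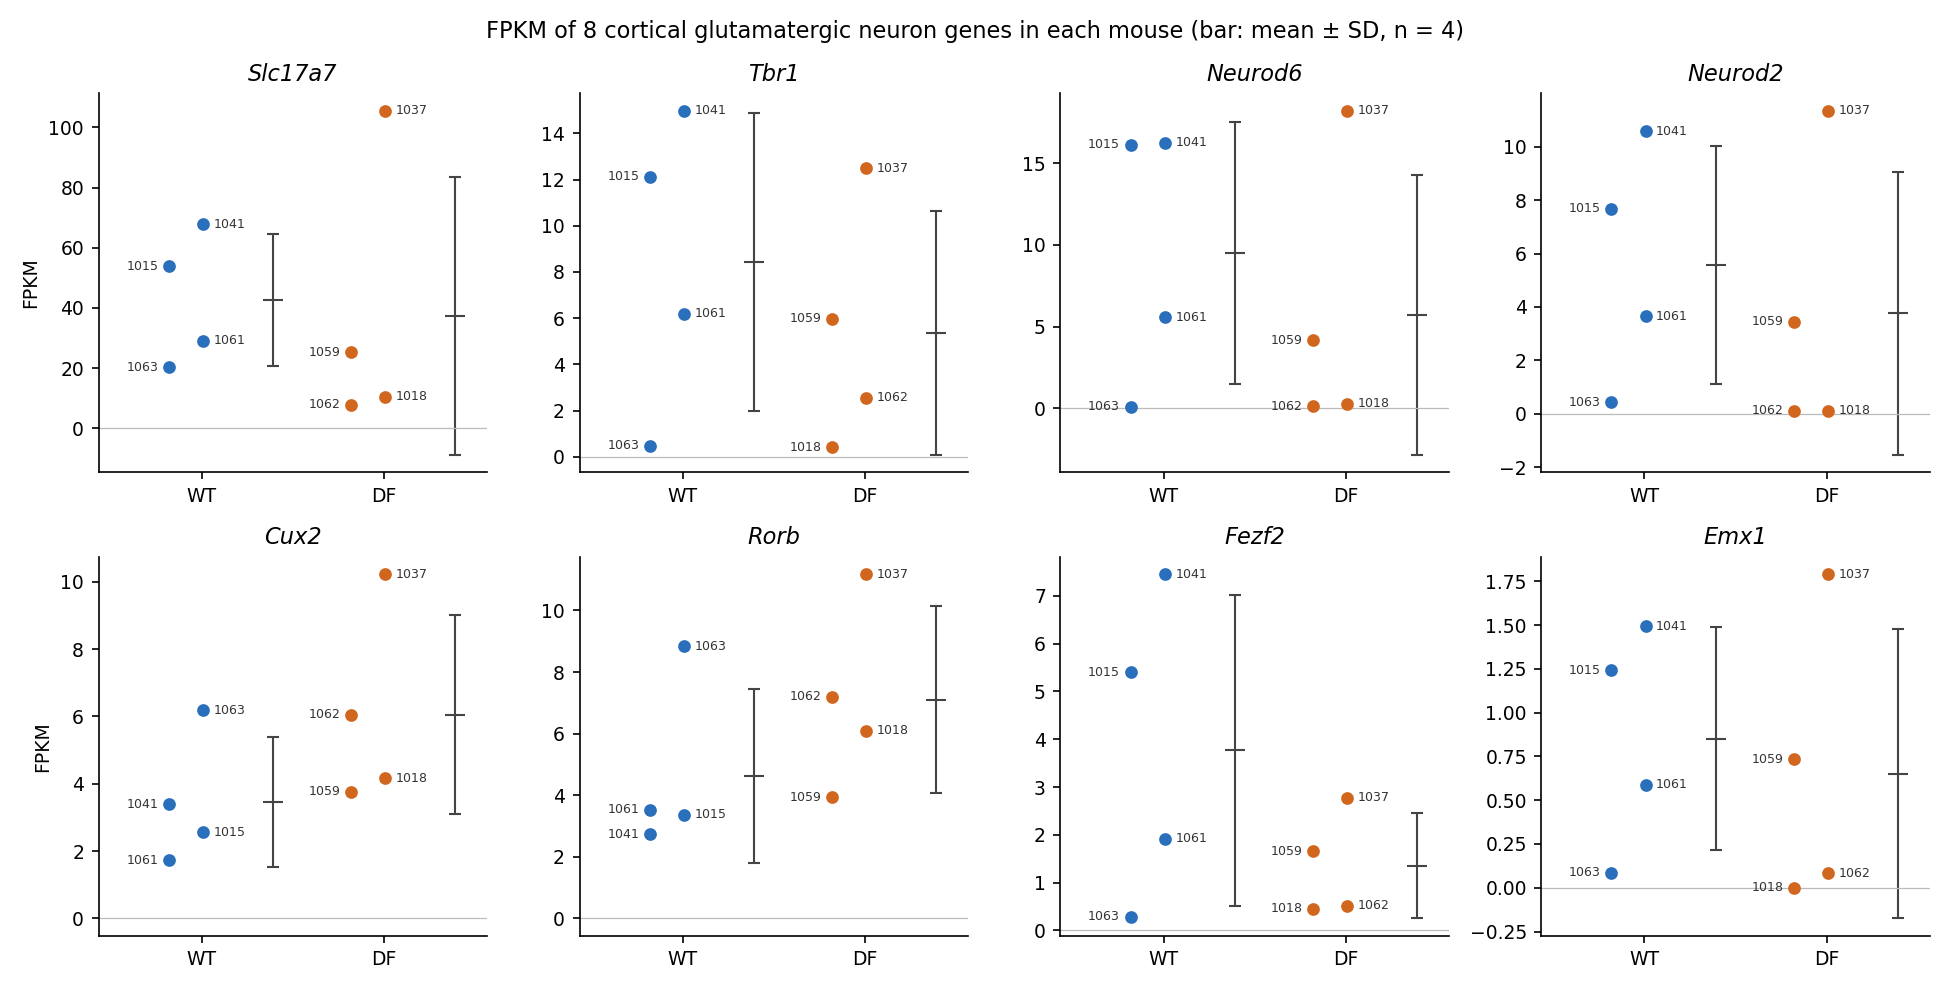
FPKM of each of the 8 genes (vertical axis of each panel) in the 4 WT mice (blue) and the 4 16p11.2+/- mice (orange, DF), with the mouse number beside each point and the mean ± SD of each group as a bar. WT-1063 lies at the bottom of its group for Slc17a7, Tbr1, Neurod6, Neurod2, Fezf2 and Emx1 and at the top of it for Cux2 and Rorb.

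None of the 8 genes passed the adjusted p threshold of 0.05 between genotypes (0 of 8), with 20 of all genes tested, 0.109%, past it (0.0164% higher and 0.0929% lower in 16p11.2+/- mice). The unadjusted p was also above 0.05 for all 8 genes in edgeR and in DESeq2, against 4.32% of all genes below it in edgeR. No gene of the 8 had groups that did not overlap in FPKM, which was the case for 2.83% of all genes. The log2 fold change was positive for 2 of them, Cux2 and Rorb, and negative for 6, with a median of -0.49 against -0.0093 over all genes tested. Leaving out WT-1063 brought the unadjusted edgeR p of 3 genes below 0.05 (Cux2, Rorb and Fezf2, the last with a log2 fold change of -1.88), and leaving out DF-1037 that of Slc17a7 (log2 fold change -1.57), with adjusted p-values of 0.517 to 0.822. The 4.32% belongs to the fit of all mice and is no background for these refits. Their own share over all genes is not given here, so these counts are not read as a result. With all mice the adjusted p-values lay between 0.859 and 0.958, and the smallest exact permutation p that 4 mice against 4 can give is 0.0286. The 95% intervals, which are not adjusted for the number of genes, extended by at least 0.95 and at most 3.11 to each side on the log2 scale. Differences well below 2-fold were thus not detectable for any of the 8 genes. For Slc17a7, Tbr1, Neurod6, Neurod2, Fezf2 and Emx1, ones much larger than 2-fold could also go undetected, most of all for Neurod6.

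**Figure D2:**
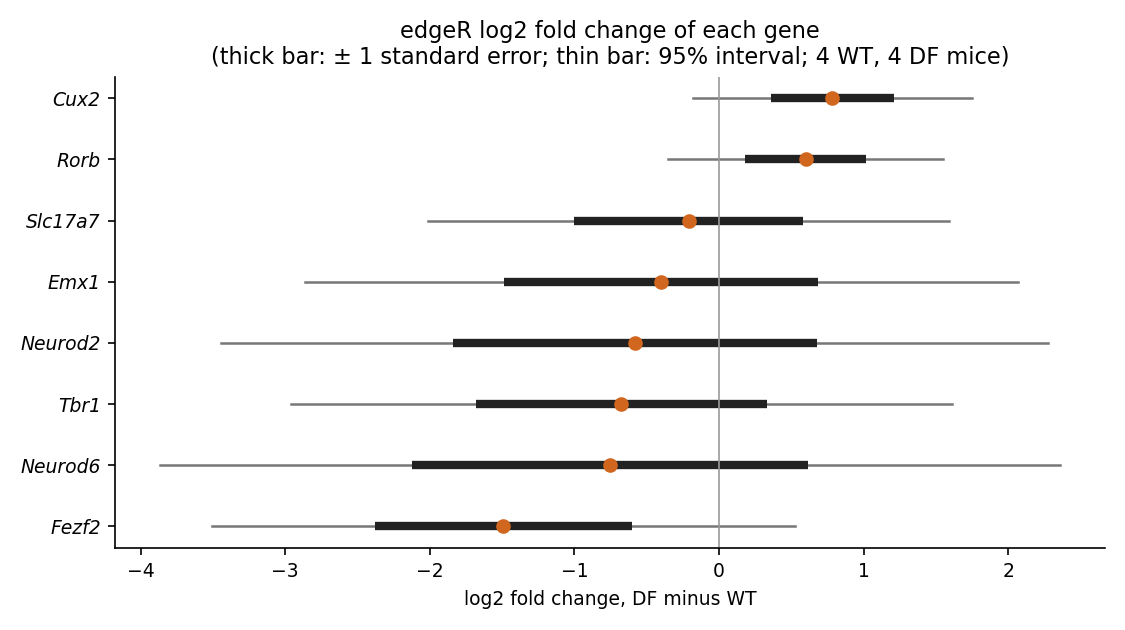
Log2 fold change of each gene, 16p11.2+/- (DF) minus WT, from edgeR on 4 mice of each genotype (horizontal axis), with ± 1 standard error as a thick bar and the 95% interval as a thin bar. All 8 intervals include 0, and that of Neurod6, from -3.86 to 2.36, is the widest.

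The spread among mice of the same genotype was wide for these genes. The SD of log2 CPM within groups was 3.10 for Neurod6, 2.64 for Neurod2, 2.17 for Tbr1, 1.96 for Emx1, 1.69 for Fezf2 and 1.33 for Slc17a7. For Cux2 and Rorb it was smaller, at 0.70 and 0.68. The median over the 8 genes was 1.83, against 0.25 over all genes tested. Even Rorb, the least variable of the 8, stood at the 90.9th percentile of all genes.

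By median FPKM over the 8 mice the order was Slc17a7 (27.2), Tbr1 (6.09), Rorb (5.01), Neurod6 (4.88), Cux2 (3.97), Neurod2 (3.55), Fezf2 (1.79) and Emx1 (0.659). Slc17a7 exceeded Tbr1 and Fezf2 exceeded Emx1 in 8 of 8 mice. The genes in between changed places from mouse to mouse. Tbr1 was above Rorb in 5 of 8 mice, Rorb above Neurod6 in 3, Neurod6 above Cux2 in 5 and Cux2 above Neurod2 in 4, so that these neighbours did not differ beyond their spread. Of the summed FPKM of the 8 genes, Cux2 and Rorb together made up 4.92% in WT-1041 and 54.1% in DF-1062.

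Ordered by log2 CPM, 6 genes, Slc17a7, Tbr1, Neurod6, Neurod2, Fezf2 and Emx1, had the same 3 lowest mice, WT-1063, DF-1018 and DF-1062. The same 3 mice were the lowest for 604 of 18294 genes tested, 3.3%. Cux2 and Rorb instead had these 3 mice and DF-1037 as their 4 highest, which was the case for 948 genes, 5.18%. DF-1037 was the highest mouse for 6 of the 8 genes, including Cux2 and Rorb, and WT-1041 for Tbr1 and Fezf2. The mouse DF-1037 was thus the only piece in which both kinds of gene were high. This pattern was noted from these values, and no test was made of it.

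**Figure D3:**
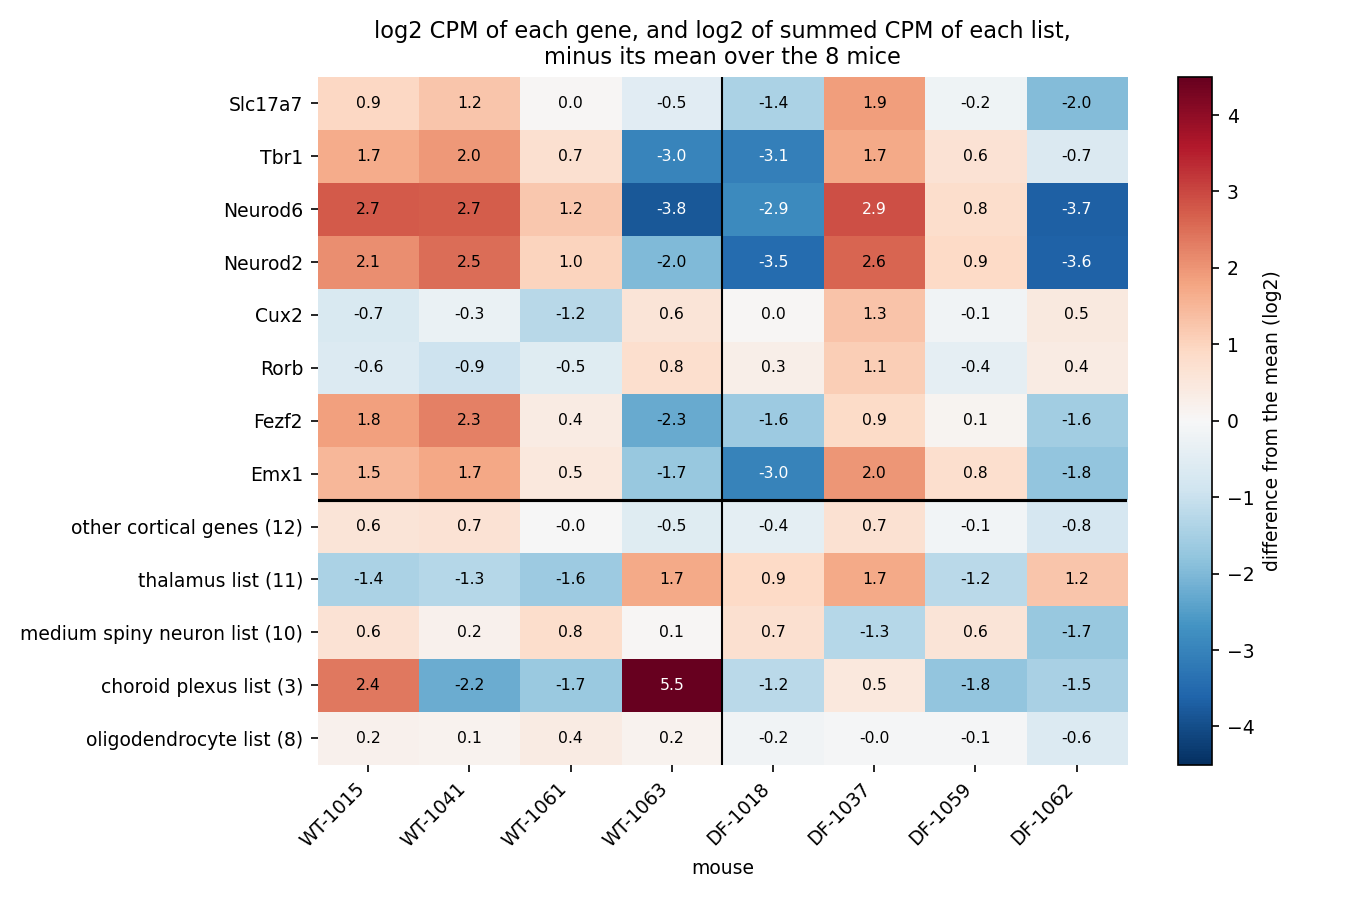
Log2 CPM of the 8 genes (upper rows) and log2 of the summed CPM of 5 marker lists (lower rows, number of genes tested in parentheses), each minus its mean over the 8 mice (columns, WT left of the line). Red is above the mean and blue below it, and WT-1063, DF-1018 and DF-1062 are blue for 6 genes and neutral to red for Cux2, Rorb and the thalamus list.

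Co-variation was measured on log2 CPM over the 8 mice, with Slc17a7 as the reference. Neurod2 rose and fell with Slc17a7, with Pearson's r of 0.946 (exact permutation p = 2.48e-05, the smallest that 8 mice can give, adjusted p = 0.000397 over 16 relations) and Spearman's rho of 1 (adjusted exact permutation p = 0.000794). That rho places DF-1018 above DF-1062, an order that their 6 counts of Neurod2 each do not resolve. With DF-1062 and DF-1037, the mice farthest from the median of Slc17a7, left out, r was 0.940, and it stayed between 0.921 and 0.965 whichever single mouse was left out. Emx1 did so too, with r = 0.906 (exact permutation p = 0.00198, adjusted p = 0.0106), rho = 0.952 (adjusted p = 0.00608) and r = 0.930 without those mice. For the marker genes of deep layers, Fezf2 and Tbr1, Pearson's r was lower, but the difference from Neurod2 and Emx1 was not tested. Fezf2 had r = 0.822 (exact permutation p = 0.0149, adjusted p = 0.0596) and rho = 0.833 (adjusted p = 0.0492), and Tbr1 had r = 0.762 (exact permutation p = 0.0327, adjusted p = 0.105) and rho = 0.905 (adjusted p = 0.0183), so both passed by rank and not by Pearson's r. With group means subtracted Fezf2 passed by Pearson's r too (0.798, adjusted exact permutation p = 0.0185). Without those 2 mice r was 0.907 for Fezf2 and 0.892 for Tbr1.

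Cux2 and Rorb showed no such relation. The r of Cux2 with Slc17a7 was 0.025 (exact permutation p = 0.953, rho = -0.17) and that of Rorb was -0.16 (exact permutation p = 0.688, rho = -0.26). Both hinged on DF-1037, since r was -0.59 for Cux2 and -0.80 for Rorb with this mouse left out, with adjusted exact permutation p-values above the threshold. Neurod6 fell into 2 separate clusters of mice, so its r with Slc17a7 was not computed. Its largest gap between neighbouring mice was 0.541 of its range, with 3 mice below and 5 above. Neurod2 (0.461) and Emx1 (0.440) had their largest gap at the same place, and Tbr1 (0.455) had 2 mice below it. These 3 genes fell short of the limit of 0.5, but not by much. Their r thus draws in part on a contrast of low and high mice, and co-variation within the higher mice was not tested. Among the 5 genes Slc17a7, Tbr1, Neurod2, Fezf2 and Emx1, the 10 pairs had r between 0.762 and 0.977, with a median of 0.909. The 10 pairs that join Cux2 or Rorb to one of these had r between -0.62 and 0.025, with a median of -0.30, whereas Cux2 with Rorb had r = 0.865. These pairs share the same 8 libraries and are given as a description.

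**Figure D4:**
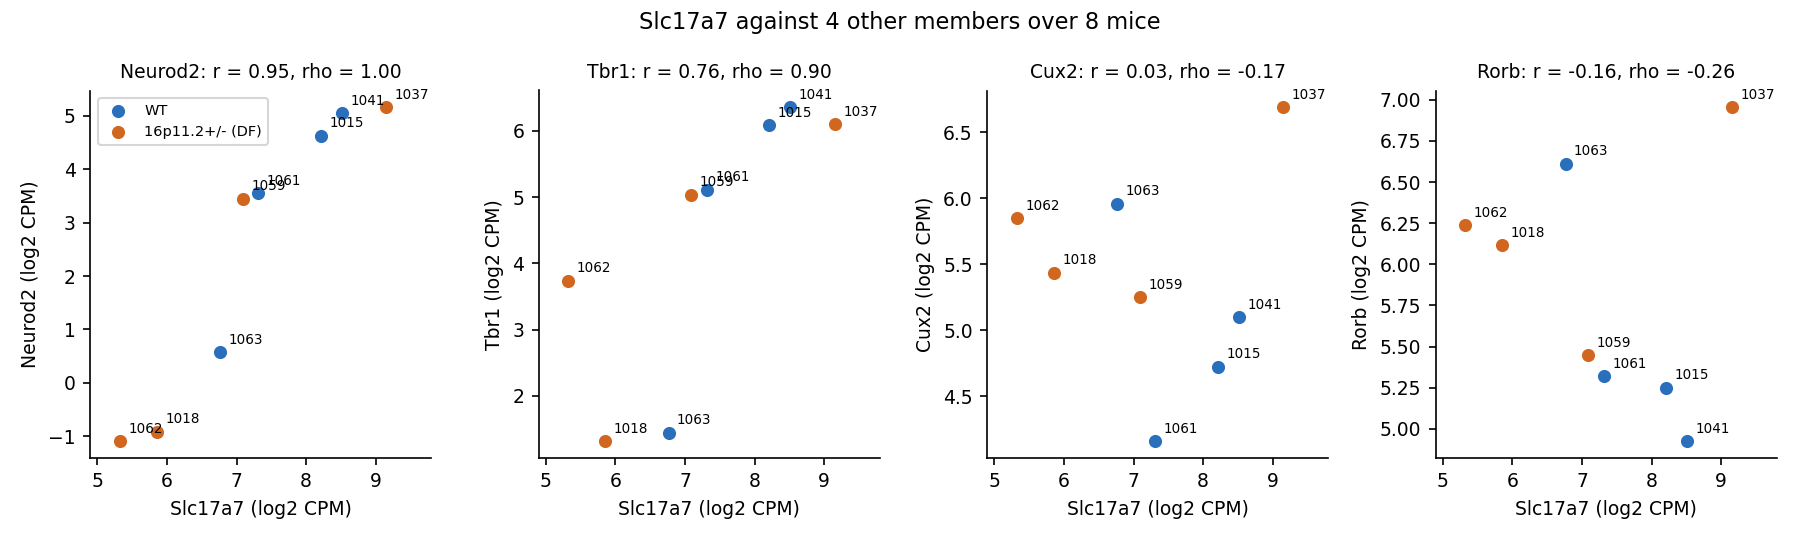
Log2 CPM of Neurod2, Tbr1, Cux2 and Rorb (vertical axes) against that of Slc17a7 (horizontal axes) in 8 mice, WT in blue and 16p11.2+/- in orange, with mouse numbers, Pearson's r and Spearman's rho. Neurod2 follows Slc17a7 over the 8 mice (r = 0.946), though the order of DF-1018 and DF-1062 is not resolved, while for Cux2 and Rorb only DF-1037 is at the upper right.

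The genes that went together did not keep a fixed ratio. In 5 mice Slc17a7 had between 3.33 and 6.05 times the FPKM of Neurod6. In WT-1063 the ratio was 175 (95% exact binomial interval 68.4 to 644), in DF-1018 it was 37.9 (19.9 to 83.2) and in DF-1062 it was 55.7 (23.7 to 172). Slc17a7 was thus lower by a smaller factor than Neurod6 in these 3 pieces, beyond the counting error. Against Tbr1 the ratio of Slc17a7 lay between 3.07 and 8.46 in 6 mice and reached 42.6 in WT-1063 (31.4 to 59.3) and 24.9 in DF-1018 (17.8 to 36.0). Tbr1 over Neurod6 was 0.685 to 1.43 in the 5 mice with high Neurod6, 18.1 (7.65 to 56.3) in DF-1062, 4.12 (1.49 to 15.8) in WT-1063 and 1.52 (0.718 to 3.61) in DF-1018. The interval of DF-1062 thus overlapped that of WT-1063 and not that of DF-1018. The ratio of Rorb to Cux2, by contrast, stayed between 0.806 and 2.04 over all 8 mice.

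**Figure D5:**
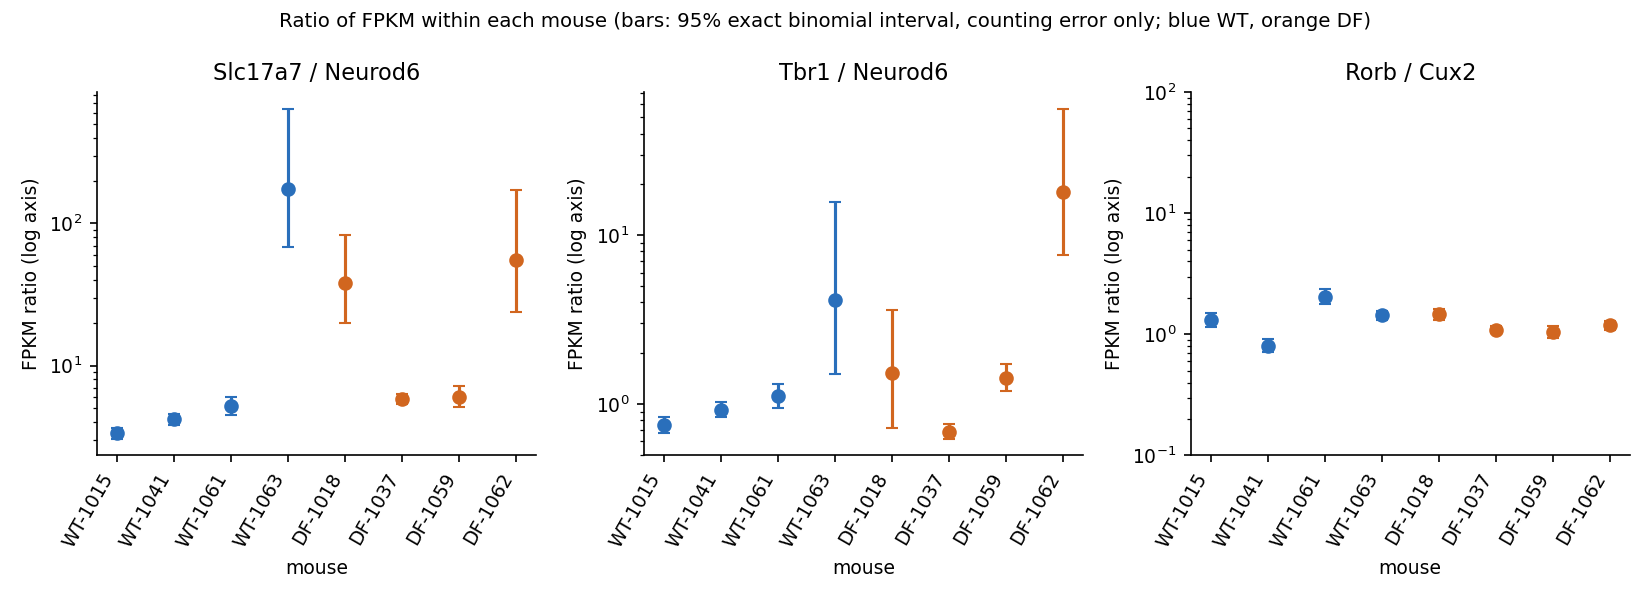
Ratio of FPKM between 2 genes in each mouse (vertical axes, logarithmic), with 95% exact binomial intervals for counting error. Slc17a7 over Neurod6 is 3.33 to 6.05 in 5 mice and 37.9 or more in WT-1063, DF-1018 and DF-1062, Tbr1 over Neurod6 is highest in DF-1062, and Rorb over Cux2 stays between 0.806 and 2.04.

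Other genes of cortical neurons were taken from 3 lists. Of 12 further pan-cortical genes, 0 passed the adjusted threshold between genotypes, with a median log2 fold change of -0.21 (3 positive, 9 negative). The largest positive value was 0.58 for Neurod1 (SE 0.62) and the largest negative value was -0.57 for Emx2 (SE 0.31). Their summed level was 531 to 1222 CPM in WT and 457 to 1239 CPM in 16p11.2+/- mice, and it followed Slc17a7 with r = 0.956 (exact permutation p = 0.000298, adjusted p = 0.00238, rho = 0.976). Of the 12 genes, 6 had the same 3 lowest mice as Slc17a7 by log2 CPM, among them Lhx2, Nptx1, Mpped1 and Mef2c. Slc30a3, which loads zinc into glutamatergic vesicles, is also counted among them, but by FPKM it was slightly lower in DF-1059 (2.04) than in DF-1062 (2.09). Nptx1, a secreted pentraxin of excitatory synapses, was at 45.9, 54.0, 26.4 and 6.53 FPKM in WT-1015, WT-1041, WT-1061 and WT-1063, and at 7.22, 40.1, 26.5 and 18.99 in DF-1018, DF-1037, DF-1059 and DF-1062. Nrn1 and Neurod1 were among the genes of the list without this order. Nrn1 was at 20.6 FPKM in WT-1063 and 20.5 in DF-1062, against 12.5, 15.5 and 5.29 in WT-1015, WT-1041 and WT-1061. Neurod1 was at 0.907 in WT-1063 and 1.75 in DF-1062, against 0.896, 1.12 and 0.224 in those mice.

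The summed levels of the layer lists had no relation with Slc17a7 that passed the threshold. Of 12 further upper layer genes, 0 passed the adjusted threshold and 0 had the same 3 lowest mice, and the median log2 fold change was 0.075 (7 positive, 5 negative), from 1.08 for Mdga1 (SE 0.33) to -0.46 for Pou3f1 (SE 0.39). Their summed level had r = -0.54 with Slc17a7 (exact permutation p = 0.166, adjusted p = 0.296). The unadjusted edgeR p was below 0.05 for 3 of the 12, Otof (0.0084), Mdga1 (0.0103) and Unc5d (0.0185), each higher in 16p11.2+/- mice. Over all genes tested this was the case for 4.32%. Of 16 further deep layer genes, 0 passed and 2, Ccn2 and Rprm, had the same 3 lowest mice. Their median log2 fold change was -0.26 (4 positive, 12 negative), from 0.63 for Tshz2 (SE 0.35) to -1.04 for Ccn2 (SE 0.50), and r was 0.13 (exact permutation p = 0.756, adjusted p = 0.864). Some genes of the layer lists, such as Bcl11b and Foxp2, are also known from medium spiny neurons. Bcl11b was at 16.8 FPKM in DF-1037 and 13.2 in DF-1062, against 31.1 to 57.7 in the other mice. The summed level of the deep layer list thus does not stand for cortical neurons alone.

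Markers of other tissue also varied from piece to piece. The log2 fold change was above 0 for all 11 thalamus genes, with a median of 0.86, and 0 of them passed the adjusted threshold. The summed thalamus level was 176 CPM in WT-1015, 190 in WT-1041, 151 in WT-1061 and 1537 in WT-1063. In the deletion mice it was 867 in DF-1018, 1522 in DF-1037, 204 in DF-1059 and 1115 in DF-1062. These 4 high pieces are the same 4 in which Cux2 and Rorb were highest, and 9 of the 11 genes shared that set of mice. Since the list falls into separate clusters of mice, no r with Slc17a7 was computed, and its part in the levels of Cux2, Rorb and the other genes was not tested beyond the covariate. With the thalamus level as a covariate the log2 fold change turned positive for Tbr1 (0.81), Neurod6 (0.72), Neurod2 (0.55) and Emx1 (0.49), each with an adjusted edgeR p of 0.9998.

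The medium spiny neuron list, which defines the labelled tissue, was lowest in DF-1037 and DF-1062. Its summed level was 6301, 4601, 6933 and 4171 CPM in WT-1015, WT-1041, WT-1061 and WT-1063. In DF-1018, DF-1037, DF-1059 and DF-1062 it was 6613, 1654, 6056 and 1226 CPM. DF-1037, where 6 of the 8 cortical genes were highest, thus had a low summed level of this list, as had DF-1062, where most of the 8 were low. The list falls into 2 clusters of mice, and within the 6 mice of the larger one r with Slc17a7 was -0.22 (exact permutation p = 0.686), rho was -0.086 (p = 0.919), and r was 0.60 with the 2 outermost of the 6 left out. None of its 10 genes, nor of the 11 thalamus genes, was at 0 in any mouse. The log2 fold change was below 0 for all 10, with a median of -0.52, and 0 of them passed the adjusted threshold.

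The other lists gave these values. For the claustrum, amygdala and piriform list (6 genes) the log2 fold change had a median of 0.35, with a summed level of 315 to 481 CPM in WT and 215 to 506 in 16p11.2+/- mice. The hippocampus list (5 of 6 tested) had a median of 0.17, with 46.9 to 145 and 47.1 to 106 CPM. The GABAergic interneuron list (6 genes) had -0.029, with 148 to 188 and 157 to 280 CPM. Choroid plexus genes (3 of 6 tested) had -3.52, with 27.5 to 5880 CPM in WT mice, the top value being WT-1063, and 38.0 to 182 CPM in 16p11.2+/- mice. Among glial lists, oligodendrocyte genes (8) had -0.42, with 11500 to 13493 and 6771 to 10093 CPM, astrocyte genes (6) had 0.081, with 1583 to 1739 and 1544 to 1888 CPM, and microglia genes (6) had -0.11, with 224 to 322 and 177 to 283 CPM. In all of these lists 0 genes passed the adjusted threshold, and the r of their summed levels with Slc17a7 lay between -0.31 for the hippocampus and 0.59 for oligodendrocytes, with 0 past it after adjustment over the 16 relations. The unadjusted edgeR p was below 0.05 for 6 of 8 oligodendrocyte genes and 2 of 3 choroid plexus genes tested. It was so for 1 of 6 claustrum, amygdala and piriform genes and for 0 in the remaining lists, against 4.32% of all genes tested.

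The genes most like the mean of the 8 (each scaled by its SD over the 8 mice) were Gm43034 (r = 0.987), Kcnh7 (0.984), 1110008P14Rik (0.983), Sowahb (0.981), E230020A03Rik (0.979), Gm36899 (0.976), Rps7 (0.972), Sept8 (0.970), Cbfa2t3 (0.967) and Camta2 (0.966). Kcnh7 encodes a potassium channel, Rps7 a ribosomal protein and Sept8 a septin. Of 18286 other genes tested, 128 had r above 0.9 with this mean. For Slc17a7 alone they were Dynll1, a dynein light chain gene (r = 0.990), Sowahb (0.985) and Podn (0.976). These are descriptions over 8 mice of values that share the same libraries.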

How the data were processed

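Striatum RNA of 8 mice (4 WT, 4 16p11.2+/-) was sequenced, and groups and mouse numbers were taken from the labels. The authors deposited raw read counts per gene, made with Hisat2 and Htseq-count as the paper describes, and FPKM per gene. The submitters' processing notes name Bowtie 0.12.2, mm8 and mm9 instead, and the strand setting is not given in the sources used here. The deposited FPKM implied a gene length equal (within 0.5%) to the summed exons of GENCODE M21 on GRCm38 for 96.0% of 17180 genes and for all 8 genes described, none of whose exons overlap another gene, so GRCm38 positions are given. The deposited table of the authors' DESeq2 comparison holds group means, fold changes and p-values and was not used, nor was a summary of FPKM in bins.

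Total counts ran from 15125051 to 16523429. Within a genotype, the chi-square of the 12 pairs of libraries was 8.07 to 55.99 per degree of freedom, so the libraries were treated as separate samples. The main test was the quasi-likelihood test of edgeR 4.0.16 (R 4.3.3) on counts (TMM, minimum count 10, minimum total 15, Benjamini-Hochberg adjustment over 18294 genes, threshold 0.05), without covariates. Log2 CPM had a prior count of 2, and FPKM was compared by exact two-sided permutation over the 70 assignments. Co-variation with Slc17a7 used exact permutation of pairings, adjusted over 16 relations (6 genes and 10 marker lists). A measure was taken to fall into clusters, with no pooled r, where its largest gap exceeded 50% of its range with at least 2 mice on each side, a limit chosen after the values were seen. Alternatives were DESeq2 1.42.0, limma-trend (limma 3.58.1) on log2(FPKM + 1) and log2(FPKM + 0.1), RLE factors, library totals, other filters, the thalamus list as covariate and each mouse left out. The scripts were tested on simulated data with 200 changed genes.

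All 8 genes were named in full. In other lists the largest positive and negative changes were named, with the 10 genes most like the mean of the 8 and the 3 most like Slc17a7. Genes named for their order of mice were picked with their values in view. The 8 genes and the lists were chosen with earlier results of these data known. Promoter windows came from RefSeq.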

Additional observations from a re-analysis of the deposited data

Results flagged for a closer look

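In 7 of 40 groups of 4 mice examined, 1 mouse lay so far from the other 3 that its gap, as a share of the range of the group, passed Dixon's 95% limit for 4 values. Independent groups of normally distributed values pass it in about 1 of 20 cases. The 40 groups share the same 8 libraries, and FPKM and summed CPM were taken without logarithm. The count of 7 cannot be set against that rate and serves as a flag only. Among the 8 genes this was the case for Rorb in WT mice, where WT-1063 had 8.84 FPKM against 2.74 to 3.54 in the others, a share of 0.869. The same mouse stood out by the summed CPM of the thalamus list (1537 against 151 to 190, share 0.971) and of the choroid plexus list (5880 against 27.5 to 672, share 0.890). Among 16p11.2+/- mice, DF-1037 stood out by the choroid plexus list (182 against 38.0 to 56.8, share 0.869) and the GABAergic interneuron list (280 against 157 to 173, share 0.873). DF-1062 had 215 CPM of the claustrum, amygdala and piriform list against 475 to 506 (share 0.894). WT-1061 had 13493 CPM of the oligodendrocyte list against 11500 to 11786 in the other WT mice (share 0.857).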

How the results depend on the processing

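No paired analysis was possible because no mouse number occurs in both genotypes. No batch is named in the labels. The number of the 8 genes past the adjusted threshold was 0 under every alternative and with each mouse left out. Of 125 refits of single genes, 116 kept the direction and 9 reversed it, and the smallest adjusted p was 0.517. With the thalamus list as a covariate the log2 fold change reversed to 0.81 for Tbr1, 0.72 for Neurod6, 0.55 for Neurod2 and 0.49 for Emx1. This covariate partly goes with genotype, and the fit cannot tell the 2 apart. With each mouse left out it ran from -1.57 to 0.14 for Slc17a7, reversing without WT-1041 (0.10), DF-1018 (0.11) and DF-1062 (0.14), and from -1.64 to 0.0170 for Emx1, reversing without WT-1041 (0.0079) and DF-1018 (0.0170). For the other genes the range was -1.53 to -0.26 for Tbr1, -2.64 to -0.34 for Neurod6, -2.19 to -0.085 for Neurod2, -2.12 to -0.94 for Fezf2, 0.40 to 1.22 for Cux2 and 0.29 to 1.12 for Rorb, with the values without DF-1037 being the lowest of each. Keeping genes with 10 or more counts in all 8 mice left no value for Neurod6, Neurod2 and Emx1. Over all genes 20 passed, against 31 with DESeq2, 13 with the covariate and 8 to 18 with a mouse left out.

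The number of genes past the threshold for co-variation with Slc17a7 was 2, against 4 by Spearman's rho, 3 with group means subtracted and 2 to 4 with a mouse left out (4 without WT-1063). Weak correlations changed sign. With group means subtracted r was 0.0039 for Rorb, -0.0634 for the deep layer list and -0.0454 for choroid plexus, and by rank it was -0.17 for Cux2 and -0.0952 for choroid plexus. With a mouse left out r ran from -0.59 to 0.21 for Cux2, from -0.80 to 0.0413 for Rorb, from -0.44 to 0.63 for the deep layer list, from -0.0476 to 0.41 for choroid plexus and from -0.0488 to 0.75 for astrocytes. The cause of these changes was not tested. With 0 to 22 counts in some mice, the ranks of the lowest pieces are limited by depth for Neurod6, Neurod2 and Emx1.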

Other observations

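The genes most like 3 single genes of the 8 over the 8 mice, named after their values were seen, were other genes for each. Tbr1 was most like Nptx1 (r = 0.993), which stands on the pan-cortical list, and Ipcef1 (0.993). Cux2 was most like Rasl11a (0.982), Metrnl (0.966) and Sestd1 (0.962), and Rorb was most like Gm43829 (0.991), Chml (0.989) and Kcng4, a potassium channel gene (0.989). Of 18286 genes, 332 had r above 0.9 with Rorb, against 108 with Tbr1. These are descriptions over 8 mice that share the same libraries, chosen as the largest of many.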
